A study of Mus musculus with 8 samples.

Results

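Kidney RNA of 8 diabetic mice was sequenced, 1 library per mouse, and the 10 genes described here are the superoxide dismutases Sod1, Sod2 and Sod3, catalase (Cat) and the peroxiredoxins Prdx1 to Prdx6. They were taken by gene name from a deposited table of 55401 genes, and each name matched a single row. Of the 8 mice, 4 received rFGF4 (mice 1, 2, 3 and 5) and 4 received vehicle (mice 2, 3, 4 and 5). rFGF4 is a recombinant, N-terminally shortened form of human FGF4, a secreted growth factor. Both groups carry the same label for the disease model, db/db, a line that lacks a working leptin receptor and becomes obese and diabetic, whereas the text of the study places the sequencing in mice made diabetic with streptozotocin. Whether the deposited values could tell these models apart was not examined, and no library from a non-diabetic mouse was analysed here. The comparison asks how the transcripts of these antioxidant enzymes in diabetic kidney differ with rFGF4 treatment.

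These enzymes dispose of superoxide and hydrogen peroxide, by-products of respiration and of oxidases. A dismutase turns superoxide into hydrogen peroxide, which catalase breaks down in peroxisomes and which peroxiredoxins reduce in the cytosol, mitochondria and endoplasmic reticulum. Typical peroxiredoxins are returned to their active state by thioredoxin, which is in turn reduced by thioredoxin reductase with NADPH. The kidney proximal tubule is rich in mitochondria and peroxisomes and is a main site of catalase in the body, and the transcription factors NRF2 (gene Nfe2l2) and FoxO are known regulators of several of these genes.

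Values are FPKM (fragment counts divided by exon length and by the size of the library), so levels can be set side by side between genes, and the table used here holds no read counts, so the depth behind a value is not known from it. Summed over all genes, FPKM was 389407 to 529835 with rFGF4 and 481321 to 552604 with vehicle, and mitochondrially encoded transcripts took 19.0% to 36.0% and 24.4% to 38.4% of that sum. A pair of libraries stood apart. In rFGF4 mouse 1 the summed FPKM of 8 proximal tubule markers was 549, against 1160 to 2061 in the other 7 mice, and each of the 8 was at its lowest there. In vehicle mouse 5 the 6 lymphoid and plasma cell markers summed to 22910, against 24.2 to 2717 elsewhere. The immunoglobulin gene Igkc alone was at 22334 there. That library also had the highest sums of macrophage, smooth muscle and endothelium markers. In such whole-tissue RNA, fewer cells of a type and less RNA per cell cannot be told apart.

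All 10 enzymes were abundant enough to be tested. Their promoters, as windows reaching from 250 bases before to 50 bases after the annotated start (RefSeq, build GRCm38.p6), were searched on both strands for the core of the antioxidant response element bound by NRF2, TGACNNNGC, and for the FoxO motif GTAAACA. A window was held for 8 of the 10 genes (not for Sod3 and Prdx6). The antioxidant response element core was found in 2 of these 8, Prdx1 and Sod1, and in 14.0% of all 27025 genes with a window, whereas the FoxO motif was found in 0 of the 8 and in 4.05% of all genes. The matches in Prdx1 and Sod1 are shown with every match in the 7 thioredoxin and sulfiredoxin genes, those of Txnrd1, Txnip and Srxn1, of which Txnrd1 and Txnip had an unadjusted p under 0.05 between the groups and Srxn1 did not. Capitals mark the matched letters, the strand is that of the gene, which is the plus strand in all 5, and the core appears in capitals as its reverse complement.
Prdx1 (chr4:116685456-116685484, core starting at -133 from the gene's start): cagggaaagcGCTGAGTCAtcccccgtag
Sod1 (chr16:90220696-90220724, core starting at -56): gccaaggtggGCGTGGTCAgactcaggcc
Txnrd1 (chr10:82859104-82859132, core starting at -92): ctggatttttGCTTTGTCAttctgacacg
Srxn1 (chr2:152105542-152105570, core starting 28 bases after the start): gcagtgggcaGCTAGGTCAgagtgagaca
Txnip (chr3:96557826-96557852, FoxO motif starting at -121, in the gene's own direction): tggaggcctgGTAAACAagggccaagt
A match is a description of the letters, and binding was not measured.

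By mean FPKM over the 8 mice, the order was Prdx5 (378), Cat (330), Prdx1 (178), Sod1 (102), Prdx3 (91.6), Sod3 (80.4), Prdx2 (46.2), Prdx6 (32.7), Sod2 (21.2) and Prdx4 (9.08). Prdx5 ranked 85 and Cat 99 among the 15150 tested genes, and the scarcest, Prdx4, ranked 4488. Neighbours in this order kept their places in all 8 mice, except that Prdx5 exceeded Cat in 6 mice, Sod1 exceeded Prdx3 in 7 and Prdx3 exceeded Sod3 in 7. The cytosolic dismutase was therefore the highest of the 3 dismutases in mean FPKM and the mitochondrial Sod2 the lowest, while the peroxiredoxins spanned the range from first to last.

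**Figure D1:**
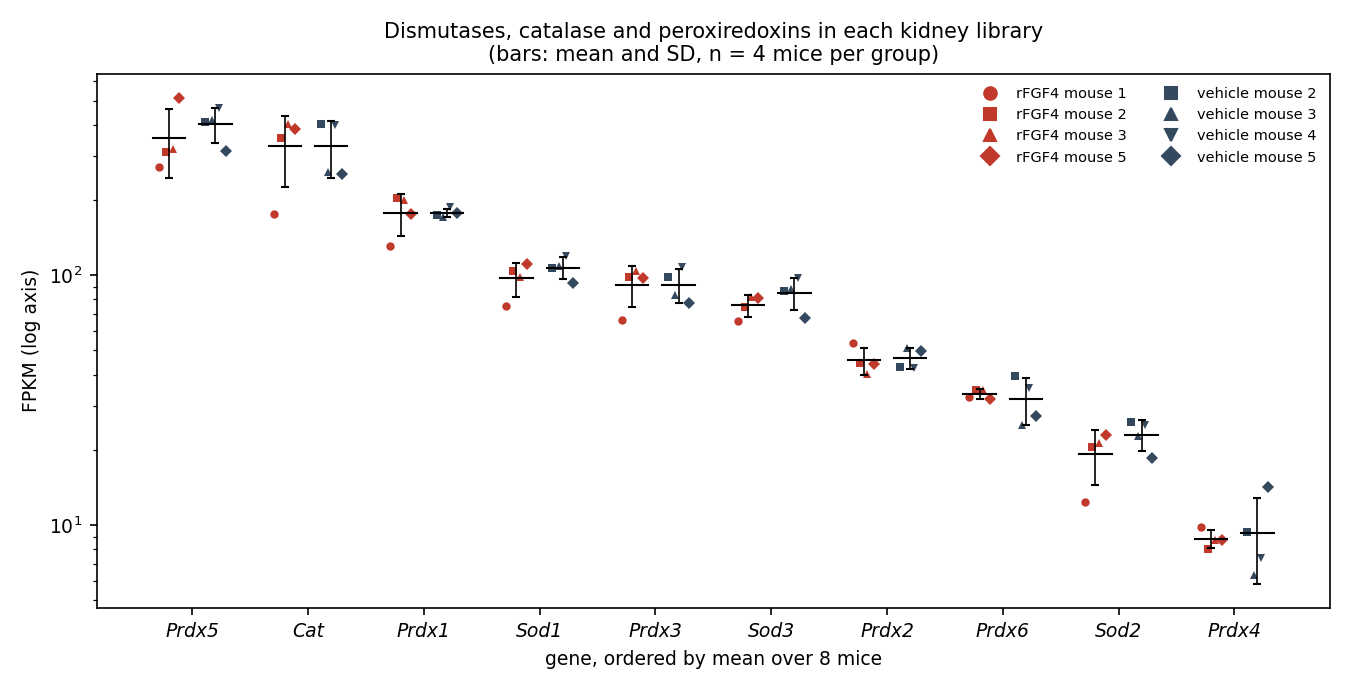
FPKM (log axis) of the 10 enzymes in each of 4 rFGF4-treated (red) and 4 vehicle-treated (dark) mice; symbols give the mouse number, and bars give the mean and SD. The groups overlap for every gene, and rFGF4 mouse 1 (red circles) is the lowest mouse for 7 of the 10.

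None of the 10 enzymes passed any of the tests between rFGF4 and vehicle. With limma's moderated test on log2(FPKM + 1), 0 of the 10 had an unadjusted p under 0.05, a level that 4.62% of the 15150 tested genes reached, and 0 met the study's threshold of p under 0.05 with a change of at least 1.5-fold, which 1.52% of tested genes met. No tested gene had an adjusted p under 0.05 in this fit (0.0%), where the smallest Benjamini-Hochberg adjusted p was 0.918. The groups did not overlap in 0 of the 10 enzymes and in 3.33% of tested genes. Fitted log2 fold changes of the 10 ran from -0.27 (Sod2) to 0.09 (Prdx6), with a median of -0.03 beside 0.09 for all tested genes.

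The point estimate was below 0 in 9 of the 10 enzymes and in 32.9% of tested genes, but this direction depended on the scaling. With libraries scaled to a common median ratio it was below 0 in 10, and with mitochondrial genes removed and the rest rescaled it was below 0 in 4. The median of all tested genes moved from 0.09 to -0.01 and 0.19 in these scalings. The median of the 10 enzymes lay 0.12 below it as deposited, and 0.15 and 0.13 below it after rescaling. This gap was not steady across mice, at -0.06 without rFGF4 mouse 1 and between -0.22 and -0.26 without rFGF4 mouse 3 or 5 or vehicle mouse 3 or 5. Among all genes past the study's threshold, 165 were higher and 66 lower as deposited, 93 and 81 after median-ratio scaling, and 396 and 61 without mitochondrial genes.

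The intervals bound what these 8 libraries could show. For 7 of the 10 enzymes the 95% interval of the log2 fold change excluded a 1.5-fold change in either direction. It included a 1.5-fold decrease for Sod2, Cat and Prdx5, and a 1.5-fold increase for Cat. The count of 7 depended on the scaling: it was 3 with median-ratio scaling (Prdx2, Prdx4 and Prdx6), where Sod1, Sod3, Prdx1 and Prdx3 also had a 1.5-fold decrease inside the interval, and 5 without mitochondrial genes. With a mouse left out it was 5 to 7. The model mattered as well. With a replicate block the count was 3, and Cat, Prdx1, Prdx3, Prdx5 and Prdx6 had a 1.5-fold increase inside the interval. It was 9 with array weights. In 2 settings added after seeing the data it was 8 (rFGF4 mouse 1 and vehicle mouse 5 left out) and 10 (proximal tubule covariate). Over all 10, the interval bounds as deposited corresponded to folds of 0.598 to 1.59 on the log2(FPKM + 1) scale.

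**Figure D2:**
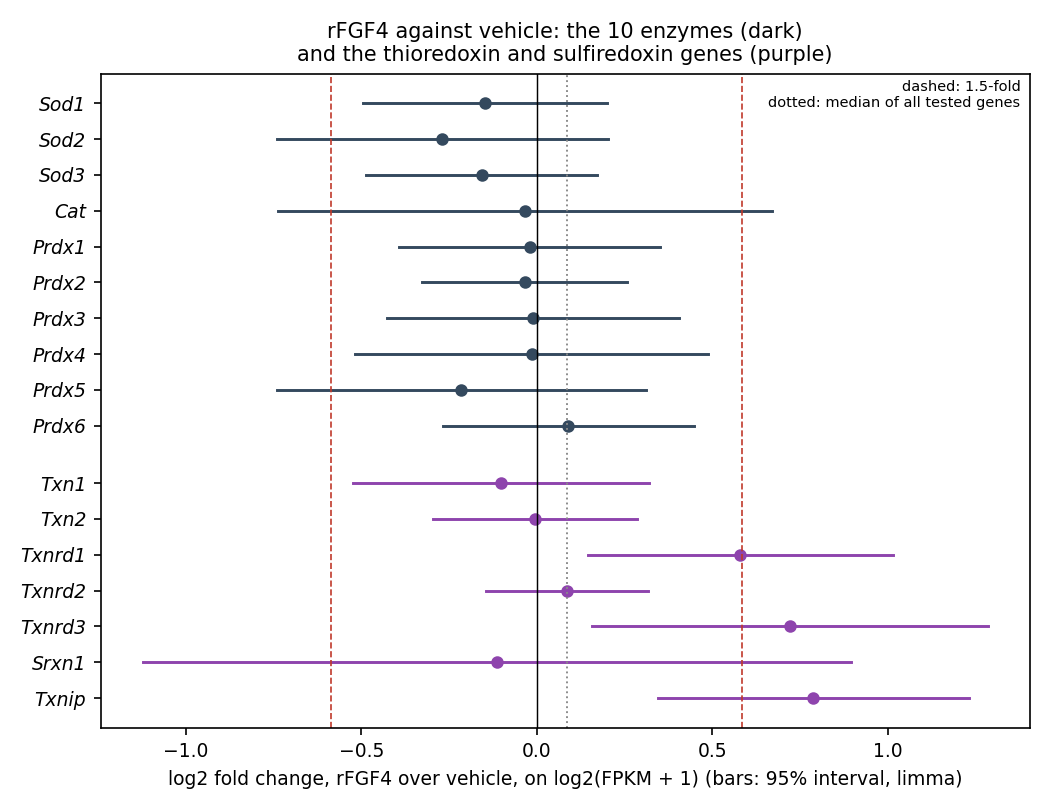
Log2 fold change of rFGF4 over vehicle on log2(FPKM + 1), with 95% intervals from limma, for the 10 enzymes (dark) and for the 7 thioredoxin and sulfiredoxin genes (purple). All 10 dark intervals cross 0, and those of Txnrd1, Txnrd3 and Txnip do not; dashed lines mark 1.5-fold and the dotted line the median of all tested genes (0.09).

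Sod2 (chromosome 17, 13006846 to 13040063, plus strand, GRCm38), the manganese dismutase of the mitochondrial matrix, had the lowest fitted fold change. Its FPKM was 12.3, 20.5, 21.4 and 23.0 in rFGF4 mice 1, 2, 3 and 5, and 25.8, 22.7, 25.1 and 18.5 in vehicle mice 2, 3, 4 and 5. The group means were 19.3 ± 4.77 (SD, n = 4) and 23.0 ± 3.29 (SD, n = 4), and the log2 fold change was -0.27 (SE 0.21, 95% interval -0.74 to 0.20, limma adjusted p = 0.920). The lowest value, in rFGF4 mouse 1, lay well below the other 7, and vehicle mouse 5 was lower than 3 of the treated mice. Without rFGF4 mouse 1 the log2 fold change was -0.08.

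Sod1 (chromosome 16, 90220754 to 90226329, plus strand), the copper and zinc dismutase of the cytosol, had an FPKM of 75.6, 104, 98.4 and 111 in the treated mice and 107, 109, 120 and 93.3 in the vehicle mice. The extracellular dismutase Sod3 (chromosome 5, 52363791 to 52371418, plus strand) had values of 65.8, 74.5, 81.6 and 81.1 against 86.7, 88.2, 97.1 and 67.8. Both had their lowest value in rFGF4 mouse 1 and their highest in vehicle mouse 4, and their groups overlapped. For Sod1 the log2 fold change was -0.15 (95% interval -0.49 to 0.20, limma adjusted p = 0.925). For Sod3 it was -0.16 (95% interval -0.49 to 0.17, limma adjusted p = 0.921). Without rFGF4 mouse 1 these became -0.03 and -0.09, and without vehicle mouse 5 they became -0.21 and -0.26.

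Catalase varied the most across mice among the 10 genes, with a coefficient of variation of 26.6%. Cat (chromosome 2, 103453849 to 103485160, minus strand) had an FPKM of 176, 354, 403 and 387 in rFGF4 mice 1, 2, 3 and 5, and 403, 260, 401 and 254 in vehicle mice 2, 3, 4 and 5. The values fell into a high and a low range in both groups: rFGF4 mouse 1 and vehicle mice 3 and 5 were at 260 or below, and the other 5 were at 354 or above. The group means were almost equal, 330 ± 105 and 329 ± 83.9 (SD, n = 4 each), and the log2 fold change was -0.03 (95% interval -0.74 to 0.67, limma adjusted p = 0.989). Without rFGF4 mouse 1 it was 0.24, with an unadjusted p of 0.290 in limma.

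Among the peroxiredoxins, Prdx5 (chromosome 19, 6906697 to 6910106, minus strand), found in mitochondria, peroxisomes and cytosol, had the lowest fold change. Its FPKM was 272, 310, 320 and 513 in the treated mice and 411, 420, 465 and 314 in the vehicle mice. A single treated mouse, mouse 5, had the highest value of all 8, and the other 3 treated mice lay below 3 of the vehicle mice. Its log2 fold change was -0.21 (95% interval -0.74 to 0.31, limma adjusted p = 0.925), and without rFGF4 mouse 5 it was -0.41. The exons of Prdx5 overlap those of Trmt112 on the opposite strand, and reads of the pair may not have been told apart.

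The mitochondrial peroxiredoxin Prdx3 (chromosome 19, 60864051 to 60874556, minus strand) had an FPKM of 66.3, 98.2, 104 and 98.0 in the treated mice and 98.4, 83.2, 108 and 77.2 in the vehicle mice. Its low mice were those of catalase, rFGF4 mouse 1 and vehicle mice 3 and 5, and the log2 fold change was -0.01 (95% interval -0.43 to 0.40). Prdx1 (chromosome 4, 116685544 to 116700822, plus strand), a cytosolic peroxiredoxin, had values of 131, 203, 201 and 176 against 175, 171, 187 and 177. The vehicle mice were close together (coefficient of variation 3.87%), and the treated mice held both the lowest and the highest value (coefficient of variation 19.0%). Prdx1 had a log2 fold change of -0.02 (95% interval -0.39 to 0.35).

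Prdx2, the cytosolic peroxiredoxin that is abundant in red blood cells (chromosome 8, 84969587 to 84974834, plus strand), had an FPKM of 53.5, 44.8, 40.1 and 44.2 in the treated mice and 43.1, 51.2, 42.5 and 50.0 in the vehicle mice. It was alone among the 10 in being highest in rFGF4 mouse 1. Its log2 fold change was -0.03 (95% interval -0.33 to 0.26), and its exons overlap those of Junb and Rnaseh2a on the opposite strand. Prdx4, the peroxiredoxin of the endoplasmic reticulum (chromosome X, 155323918 to 155340754, minus strand), had values of 9.84, 8.05, 8.71 and 8.75 against 9.42, 6.31, 7.38 and 14.2. The treated mice were close together and the vehicle mice held both extremes, with vehicle mouse 5, the library rich in lymphoid and plasma cell markers, the highest. Prdx4 had a log2 fold change of -0.01 (95% interval -0.52 to 0.49), and without vehicle mouse 5 it was 0.19.

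Prdx6, which has a single catalytic cysteine and is reduced through glutathione rather than thioredoxin, had the only fitted fold change above 0 (chromosome 1, 161240112 to 161251219, minus strand). Its FPKM was 32.5, 34.6, 34.8 and 31.9 in the treated mice and 39.6, 25.2, 35.5 and 27.3 in the vehicle mice, so that all 4 treated mice lay inside the vehicle range. The log2 fold change was 0.09 (95% interval -0.27 to 0.45, limma adjusted p = 0.953), and -0.04 after median-ratio scaling. By two-sided exact permutation over the 70 ways to choose 4 of 8 mice, p was between 0.314 and 1 for the 10 enzymes, where the smallest possible is 0.0286. Near-identical copies could take reads from these genes. Copies were sought by symbol alone and not for Cat, so copies under other names were not examined. Of those found, Prdx1-ps, Prdx2-ps2, Prdx6-ps2 and Prdx6b were at the value taken as 0 in all 8 mice. Prdx2-ps1 did not exceed 0.559 FPKM.

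As shares of the summed FPKM of the 10 enzymes, which was 894 to 1473 in treated and 1093 to 1488 in vehicle mice, the groups overlapped for 9 of the 10. Prdx5 took 24.4% to 34.8% of the sum over the 8 mice, and Cat 19.7% to 30.7%. The share of Sod2 was the exception, at 1.38% to 1.64% in treated and 1.69% to 1.85% in vehicle mice. In FPKM itself the groups of Sod2 overlapped. The share of Sod2 was singled out after its values were seen and is given without a test. How many of the tested genes would separate the groups on this scale was not computed.

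Over all 8 mice, some of the enzymes moved with the tissue content of the libraries. For each enzyme, log2(FPKM + 1) over the 8 mice was set against the mean log2(FPKM + 1) of the 8 proximal tubule markers, against that of 5 red blood cell markers and against the mitochondrial percentage, 30 relations in all. The red blood cell markers summed to 120 to 2657 FPKM in treated and 1139 to 4325 in vehicle mice, and no marker of either list was at 0 throughout. By exact permutation of the pairings, 11 of the 30 had an adjusted p under 0.05 for Pearson's r, 4 of them with proximal tubule markers, 4 with the mitochondrial percentage and 3 with red blood cell markers, and 3 had one for Spearman's rho. Prdx1, Prdx4 and Prdx6 had no such relation with any of these contents. FPKM values share the total of their library, so such relations are not independent of each other, and each group of 4 mice was too small for a coefficient of its own.

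Catalase had the highest r with the proximal tubule markers, r = 0.975 (exact permutation p = 0.000298, adjusted p = 0.00322) and rho = 0.881 (exact permutation p = 0.00724, adjusted p = 0.0543). Prdx3 did so with r = 0.948 (exact permutation p = 0.000570, adjusted p = 0.00428) and rho = 0.952 (exact permutation p = 0.00114, adjusted p = 0.0114). For Sod2, r was 0.913 (exact permutation p = 0.00759, adjusted p = 0.0253) and rho 0.690 (exact permutation p = 0.0694, adjusted p = 0.139). Prdx2 ran the other way, with r = -0.902 (exact permutation p = 0.000322, adjusted p = 0.00322) and rho = -0.976 (exact permutation p = 0.000397, adjusted p = 0.00595). With the 2 mice farthest from the median of the markers left out (rFGF4 mouse 1 and vehicle mouse 3), r was 0.916 for Cat, 0.865 for Prdx3, 0.869 for Sod2 and -0.874 for Prdx2. The relation of Prdx1 to the markers, r = 0.815, fell to 0.0141 without these mice and so rested on them.

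**Figure D3:**
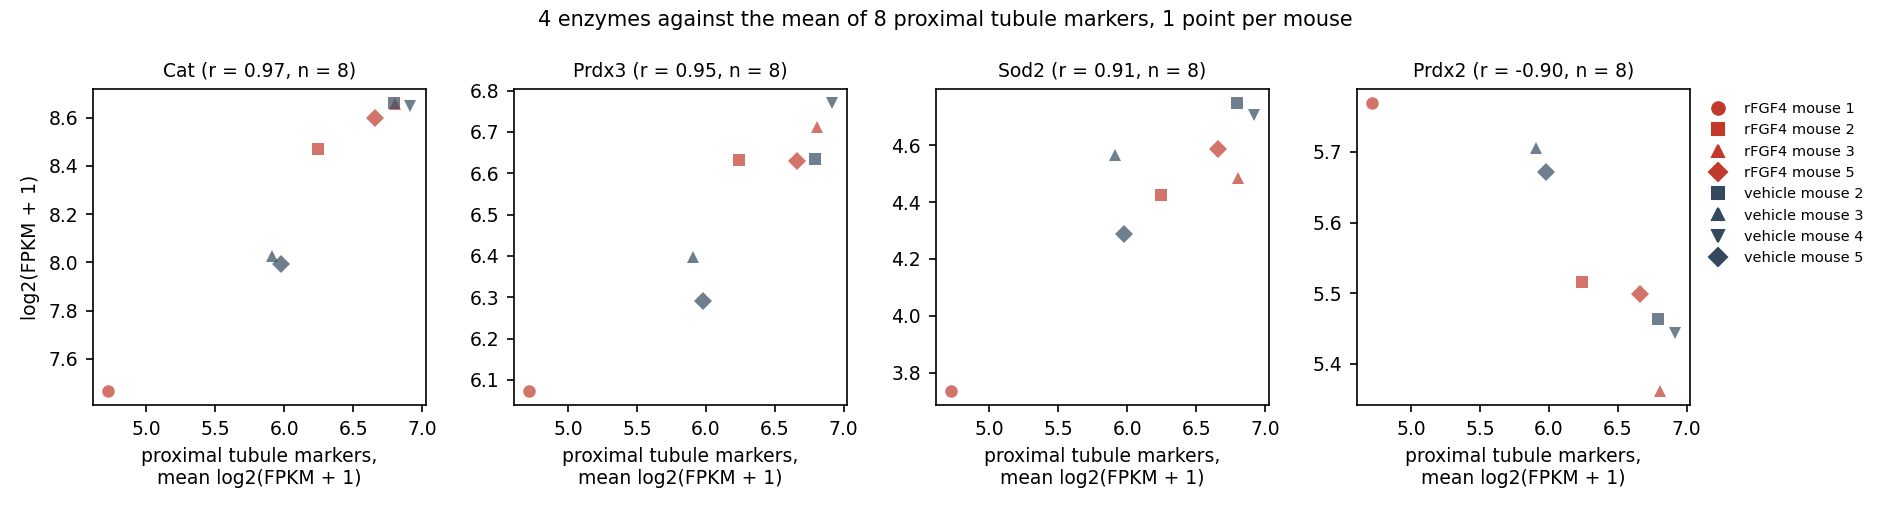
Log2(FPKM + 1) of Cat, Prdx3, Sod2 and Prdx2 against the mean log2(FPKM + 1) of 8 proximal tubule markers, 1 point per mouse, with colour for the group and symbol for the mouse number. Cat, Prdx3 and Sod2 are higher and Prdx2 lower in mice with more marker transcript; in the panel of Cat, rFGF4 mouse 3 and vehicle mouse 2 lie on top of each other.

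Sod2 was ordered across the 8 mice exactly as the mitochondrial percentage was, with rho = 1 (exact permutation p = 4.96e-05, adjusted p = 0.00149) and r = 0.910 (exact permutation p = 2.48e-05, adjusted p = 0.000744), both unadjusted values being the smallest that the permutations can give. For Prdx5, r with this percentage was 0.911 and rho 0.810 (exact permutation, adjusted p = 0.0186 and 0.0817). For Sod3, r was 0.906 and rho 0.833 (exact permutation, adjusted p = 0.0132 and 0.0769), and for Sod1, r was 0.861 and rho 0.833 (exact permutation, adjusted p = 0.0169 and 0.0769). Without rFGF4 mouse 1 and vehicle mouse 5, the r of Sod2, Prdx5, Sod3 and Sod1 was 0.933, 0.843, 0.770 and 0.615. With the red blood cell markers, r was 0.888 for Sod1, 0.872 for Sod2 and 0.798 for Prdx5 (exact permutation, adjusted p = 0.0238, 0.0289 and 0.0347), with rho of 0.762, 0.762 and 0.714 (adjusted p = 0.110, 0.110 and 0.139), and 0.663, 0.814 and 0.698 for r without rFGF4 mice 1 and 3.

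The group comparison was repeated with the proximal tubule mean as a covariate, a choice made after seeing the data. The standard error of the log2 fold change then fell from 0.31 to 0.09 for Cat and from 0.18 to 0.08 for Prdx3. The fold changes became 0.14 for Cat and 0.08 for Prdx3, and again 0 of the 10 enzymes had an unadjusted p under 0.05. With rFGF4 mouse 1 and vehicle mouse 5 both left out, the count was 0 as well, with log2 fold changes between -0.22 (Prdx5) and 0.14 (Prdx4).

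For each enzyme, the genes with the most similar profile were sought among 4105 tested genes with a mean FPKM of at least 10, by the root mean square difference of centred log2 values over the 8 mice. Cryzl2 (0.05) and Acat1 (0.06) were nearest to Cat, and Sdhb (0.05) and Clybl (0.06) to Sod2. Tex2 and Acsf3 were nearest to Prdx3, H2-Ke6 to Sod1, Gps1 and Stub1 to Prdx2, and Abcb8 and mt-Tp to Sod3. Prdx4 had no close counterpart, its nearest gene being Plpp1 at 0.16, and Reep6 (Prdx5), Alad (Prdx1) and Yipf4 (Prdx6) lay between 0.09 and 0.10.

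Genes that serve these enzymes were compared through 5 lists, 34 genes in all, of which 31 were tested. Of these, 5 had an unadjusted p under 0.05 with a higher level in rFGF4-treated mice, against 3.56% of all tested genes, and 0 had one with a lower level. None of the 31 had an adjusted p under 0.05, and their median log2 fold change was 0.03. The lists were chosen with earlier results of these data known, so the count of 5 beside 3.56% does not test for an excess. The 5 were Txnrd1, Txnrd3 and Txnip of 7 thioredoxin and sulfiredoxin genes and Foxo3 and Nfe2l2 of 6 regulators. The lists for copper supply (4 tested), peroxisomal import (6 tested) and peroxisomal oxidases (8 tested) held 0 such genes. Among markers of kidney and blood cells, 6 of 6 for macrophages and 5 of 5 for podocytes had a fold change above 0 (medians 0.43 and 0.26), as did 67.1% of all tested genes. All tested markers of red blood cells (5, median -1.97), collecting duct (6, median -0.31) and endothelium (5, median -0.22) had one below 0. This held for 32.9% of all tested genes. The remaining lists were mixed. Below 0 were 6 of 8 proximal tubule markers (median -0.30) and 4 of 5 of the loop of Henle and distal tubule (median -0.44). For smooth muscle it was 3 of 4 (median -0.53), and for lymphoid and plasma cells 2 of 4 tested (median -0.30). Of these markers, the podocyte gene Synpo (log2 fold change 0.87, limma unadjusted p = 0.0195) and the endothelial gene Tek (-0.38, limma unadjusted p = 0.0424) had an unadjusted p under 0.05. The macrophage markers summed to 80.3 to 1198 FPKM in treated and 43.3 to 1728 in vehicle mice, and the podocyte markers to 64.6 to 90.5 and 46.0 to 84.8. Their part in the levels of the partner genes was not tested.

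Txnrd1, the cytosolic thioredoxin reductase that keeps Prdx1 and Prdx2 supplied with reduced thioredoxin and whose promoter holds the core printed with the sequences, had an FPKM of 21.5, 33.0, 26.7 and 17.1 in rFGF4 mice 1, 2, 3 and 5 and 16.0, 15.2, 16.3 and 15.1 in vehicle mice 2, 3, 4 and 5. Every treated mouse lay above every vehicle mouse, though treated mouse 5 only narrowly, and the vehicle values were nearly constant. The log2 fold change was 0.58 (SE 0.19, limma unadjusted p = 0.0150, adjusted p = 0.918, exact permutation p = 0.0286, the smallest possible).

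Txnip, the thioredoxin-binding protein that inhibits thioredoxin and whose gene responds to glucose, had values of 230, 237, 179 and 154 against 101, 112, 101 and 147. Here too the groups did not overlap, and treated mouse 5 and vehicle mouse 5 were the nearest pair. The log2 fold change was 0.79 (SE 0.19, limma unadjusted p = 0.00329, adjusted p = 0.918, exact permutation p = 0.0286). Txnrd3, a reductase with a fused glutaredoxin domain, had values of 15.8, 12.4, 14.3 and 7.05 against 8.77, 5.35, 6.57 and 7.04, and the groups overlapped through treated mouse 5. Its log2 fold change was 0.72 (SE 0.25, limma unadjusted p = 0.0183, adjusted p = 0.918).

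The other 4 genes of this list, named after their values were seen, did not pass the test. The cytosolic thioredoxin Txn1 had a log2 fold change of -0.10, the mitochondrial thioredoxin Txn2 of -0.01 and the mitochondrial reductase Txnrd2 of 0.08. Srxn1, which repairs overoxidised peroxiredoxins, had one of -0.11 with a 95% interval of -1.12 to 0.89. Whether the reductases differed from the peroxiredoxins in their response was not tested.

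Among the regulators, Foxo3 had an FPKM of 13.0, 15.5, 18.8 and 12.9 in the treated mice and 10.8, 10.4, 9.42 and 12.3 in the vehicle mice, with no overlap. Its log2 fold change was 0.44 (SE 0.15, limma unadjusted p = 0.0164, adjusted p = 0.918, exact permutation p = 0.0286). Nfe2l2, which encodes NRF2, had values of 46.8, 46.6, 38.0 and 27.1 against 22.0, 29.0, 26.9 and 32.0, with treated mouse 5 inside the vehicle range. Within each group, Nfe2l2 had the same order of mice as the macrophage sum, from mouse 1 through 2 and 3 to 5 in treated mice and from mouse 5 through 3 and 4 to 2 in vehicle mice. Whether Nfe2l2 and the macrophage sum were related was not tested, and each group held only 4 mice. The log2 fold change of Nfe2l2 was 0.49 (SE 0.20, limma unadjusted p = 0.0373, adjusted p = 0.918). Foxo1 was at 0.46 (unadjusted p = 0.0571 in limma), and Keap1, which holds NRF2 in check, at -0.16 (unadjusted p = 0.299 in limma). These are transcript levels, and neither the location nor the activity of the factors was measured.

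**Figure D4:**
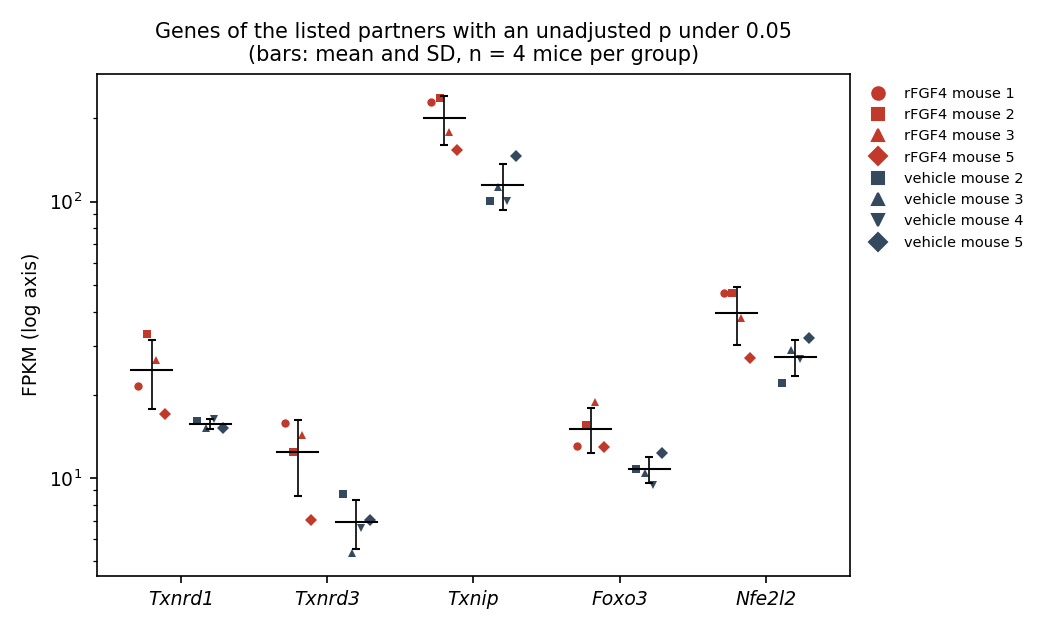
FPKM (log axis) of the 5 listed genes with an unadjusted p under 0.05 in each rFGF4-treated (red) and vehicle-treated (dark) mouse; bars give the mean and SD, n = 4. All red points lie above all dark points for Txnrd1, Txnip and Foxo3, while rFGF4 mouse 5 falls among the vehicle mice for Txnrd3 and Nfe2l2.

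With rFGF4 mouse 1 and vehicle mouse 5 both left out, Txnrd1, Txnip and Foxo3 still had an unadjusted p under 0.05 in limma, at log2 fold changes of 0.61, 0.83 and 0.57, whereas p was 0.0733 for Txnrd3 and 0.0679 for Nfe2l2, at log2 fold changes of 0.60 and 0.48. After median-ratio scaling, Txnrd1 (log2 fold change 0.46) and Foxo3 (0.32) had p of 0.0648 and 0.108 in limma, and the direction of all 5 was the same. The call of Nfe2l2 was lost when any 1 of 6 mice was left out, rFGF4 mice 1, 2 and 3 and vehicle mice 2, 3 and 4, and that of Txnrd3 without rFGF4 mouse 3 or vehicle mouse 3. The count of 5 fell to 3 without either of the latter mice. Without both rFGF4 mouse 1 and vehicle mouse 5, 3 of the 5 had an unadjusted p under 0.05 in limma, together with 2 other listed genes.

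The peroxisomal oxidases, which produce the hydrogen peroxide that catalase consumes, had 6 of 8 fold changes below 0, beside 32.9% of all tested genes. Of the peroxisomal import genes, 5 of 6 had a fold change above 0, beside 67.1% of all tested genes, and none passed the test. Pex5, the receptor that carries catalase into peroxisomes, was at 0.15 (95% interval -0.16 to 0.46). The copper chaperone of Sod1, Ccs, was at -0.16 (95% interval -0.62 to 0.30), and the other 3 tested copper genes were between -0.02 and 0.06. Pex5 and Ccs were also named after their values were seen.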

How the data were processed

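RNA was extracted from kidney with Trizol, selected for poly(A) and sequenced as paired-end Illumina reads. Transcripts were assembled with StringTie and merged with gffcompare, and the authors deposited 1 FPKM value per gene and library. The submitters' processing notes name Bowtie 0.12.2, HISAT2 2.0, StringTie 1.3.0 and the build mm8, without roles. A value of 0.0001 was taken as the table's 0. The KEGG and GO annotation and the authors' fold changes, p-values and q-values in the same table were not used, and the edgeR test of the methods needs counts, which were not used here. Gene positions came from GENCODE M21 (GRCm38), in which 55141 of 55401 identifiers (99.5%) were found.

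The 15150 genes that reached 0.5 FPKM in 4 libraries or more entered the comparison, which was made on log2(FPKM + 1) with limma 3.58.1 (trend) in R 4.3.3, with Benjamini-Hochberg adjustment over all of them, so that folds of scarce genes are understated. The procedure was tested on simulated data. The labels do not describe separate cultures or litters, and p-values measure the spread between these mice. Relations and exact permutation tests were computed in Python 3.11.15 with scipy 1.17.1, and plots with matplotlib 3.10.9. The genes and lists were chosen with earlier results of these data known. All 10 enzymes and each gene of the partner lists with an unadjusted p under 0.05 are named, with Foxo1, Nfe2l2 and Keap1 and, for each enzyme, its nearest genes; the results of a few genes are not reported here. Alternatives were a pseudocount of 0.1, no filter, scaling to a common median ratio, mitochondrial genes removed, a replicate block, array weights and each mouse left out. Leaving out a pair of libraries and a proximal tubule covariate were added after seeing the data.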

Additional observations from a re-analysis of the deposited data

Results flagged for a closer look

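In 2 of 20 groups of 4 values (10 enzymes in each treatment group) on the scale log2(FPKM + 1), a single mouse lay apart from the rest by Dixon's criterion for 4 samples. Chance passes about 1 in 20 such groups. Both were the lowest value of the rFGF4-treated group, in rFGF4 mouse 1. For Cat, the gap to the next mouse was 0.842 of the range of the group, and for Prdx3 it was 0.871. On FPKM itself these were 0.782 and 0.845, and Cat no longer met the criterion, which left 1 of the 20 groups. The same library had the lowest proximal tubule marker level of the 8, with a mean log2(FPKM + 1) of 4.72 against 5.91 to 6.92 in the other mice, and its part in these values was not tested.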

How the results depend on the processing

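Under 16 alternatives, 0 of the 10 enzymes had an unadjusted p under 0.05 in limma, while the direction turned in 35 of 160 values. Sod2, Sod3 and Prdx5 stayed below 0 in all. The cause of these turns was not tested. Prdx6 was at -0.036 with median-ratio scaling. Without mitochondrial genes, Cat, Prdx1, Prdx2, Prdx3 and Prdx4 were at 0.066, 0.079, 0.064, 0.088 and 0.084. With array weights, Cat, Prdx1, Prdx3 and Prdx4 were at 0.0033, 0.10, 0.0026 and 0.041. Without rFGF4 mouse 1 and vehicle mouse 5 they were at 0.13, 0.12, 0.057 and 0.14. With the proximal tubule covariate, Cat, Prdx1 and Prdx3 were at 0.14, 0.045 and 0.083.

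Leaving out each mouse in turn gave -0.21 to -0.033 for Sod1, -0.37 to -0.079 for Sod2, -0.26 to -0.089 for Sod3, -0.41 to -0.10 for Prdx5, -0.15 to 0.24 for Cat, -0.092 to 0.12 for Prdx1, -0.11 to 0.023 for Prdx2, -0.089 to 0.13 for Prdx3, -0.16 to 0.19 for Prdx4 and -0.013 to 0.20 for Prdx6. The count of listed partner genes with an unadjusted p under 0.05 was then 3 to 6, and 8 with the proximal tubule covariate. Genes past the study's threshold numbered 231 in all, 348 with a pseudocount of 0.1, 457 without mitochondrial genes, 490 with array weights and 187 to 575 with a mouse left out (575 without rFGF4 mouse 5, 432 without vehicle mouse 5). Genes at an adjusted p under 0.05 numbered 0, 1 without the filter and 0 to 1 with a mouse left out, none of them among the 10 enzymes.

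Mice 2, 3 and 5 share numbers between the groups, but the correlations of their deviations from the group means were -0.23, -0.16 and -0.39, so the numbers were not read as pairs. A block for them, which drops the mice without a partner, put Sod1, Cat, Prdx1 and Prdx3 at 0.022, 0.35, 0.14 and 0.22 and gave 3 listed partner genes an unadjusted p under 0.05, of which Txnrd1 was 1 of the 5 named. In limma, Txnrd1 was then at an unadjusted p of 0.0389, and Txnip, Foxo3, Txnrd3 and Nfe2l2 were at 0.0743, 0.0885, 0.114 and 0.232. Their log2 fold changes with the block were 0.65 (Txnrd1), 0.66 (Txnip), 0.45 (Foxo3), 0.58 (Txnrd3) and 0.40 (Nfe2l2). The median of the 10 enzymes less that of all genes was 0.02 with the block. Depth is unknown without counts. As deposited, with 4 mice a group, a 1.5-fold change lay inside the interval for Sod2, Cat and Prdx5. After median-ratio scaling it did so for 7 enzymes.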
